A study of Drosophila melanogaster with 6 samples.

Results

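This account sets the peaks of the phosphoacetylated histone mark H3K9acS10ph against those of H3K4me3 in Kc167, a cell line from female late embryos of Drosophila melanogaster. The antibodies of 2 of the 6 chromatin immunoprecipitation libraries of the series define it, H3K9acS10ph and H3K4me3, and the lists for H3K27ac, H3K4me1, JIL-1 and H3K27acS28ph were read against them. There was 1 library per antibody, from cells with no treatment named in the labels, fixed with 1% formaldehyde for 10 min, and no replicates, so no comparison below carries a test and all intervals are 95% intervals that cover counting error only. The members were the 6873 H3K9acS10ph peaks, of 6918 in that list, on the main arms (X, 4 and the left and right arms 2L, 2R, 3L and 3R), and they were sorted by how many of the 9412 H3K4me3 arm peaks they spanned, a peak being spanned when it shared at least 1 bp. Read depth is unknown. Depth and antibody efficiency can change how many peaks are called and how far they extend, and their part in the values below cannot be told apart from that of the mark.

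H3K4me3 is placed by COMPASS-type methyltransferases at the starts of transcribed genes and is a mark of active promoters. H3K9acS10ph carries an acetyl group on a lysine next to a phosphorylated serine of the same histone H3 tail. In interphase fly nuclei the kinase JIL-1 phosphorylates that serine. H3K27ac marks active promoters and enhancers, and H3K4me1 marks enhancers and the flanks of promoters.

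Most H3K9acS10ph peaks lay over a single H3K4me3 peak. Of the 6873 arm peaks, 1773 spanned no H3K4me3 peak (25.8%, Wilson interval 24.8 to 26.8), 3702 spanned 1 (53.9%, 52.7 to 55.0), 1074 spanned 2 (15.6%, 14.8 to 16.5) and 324 spanned 3 or more (4.71%, 4.24 to 5.24). Within the last class 243 peaks spanned 3, 57 spanned 4, 18 spanned 5, 4 spanned 6 and 2 spanned 7. The 1398 peaks that spanned 2 or more made up 20.3% of the peaks and 35.3% of the sequence under H3K9acS10ph on the arms (6.96 of 19.7 Mb). Counted from the other mark, 6723 H3K4me3 peaks lay under 1 H3K9acS10ph peak, 106 touched 2 of them, and 2583 touched none, so that 72.6% of the 9412 touched H3K9acS10ph. When H3K4me3 peaks less than 500 bp apart were joined before counting, 333 H3K9acS10ph peaks spanned 2 and 25 spanned 3 or more, so most of the multiple spans ran across closely set H3K4me3 peaks. When each list was reduced to its upper 50% by score, the counts were 582, 2166, 578 and 110 for 0, 1, 2 and 3 or more. H3K4me3 was then cut to 4706 peaks, so the count at 0 took in H3K9acS10ph peaks over H3K4me3 peaks that the cut removed.

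Few peaks lay close to the 1 bp limit between spanning none and spanning any. In 6 peaks the shared sequence was 1 to 50 bp in all, with a median width of 1526 bp, and 9 peaks that spanned none ended less than 50 bp from H3K4me3, with a median width of 1704 bp. Stricter limits moved more peaks. With at least 50% of an H3K4me3 peak required inside, 1832 peaks spanned 0, 959 spanned 2 and 282 spanned 3 or more. With the whole H3K4me3 peak required inside, the counts were 2592, 763 and 215.

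Peaks that spanned more H3K4me3 peaks were wider. A wider interval can hold more peaks, so width and count are not independent measures. Median widths were 1704 bp for 0 (quartiles 1359 and 2271), 2102 bp for 1 (1572 and 2976), 3839 bp for 2 (2938 and 5220) and 6648 bp for 3 or more (4958 and 8768). The width available per spanned H3K4me3 peak hardly moved, with medians of 2102 bp at 1, 1920 bp at 2 and 2004 bp at 3 or more. H3K4me3 covered a median of 75.3% of the width of peaks spanning 1, 80.3% at 2 and 81.3% at 3 or more.

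**Figure D1:**
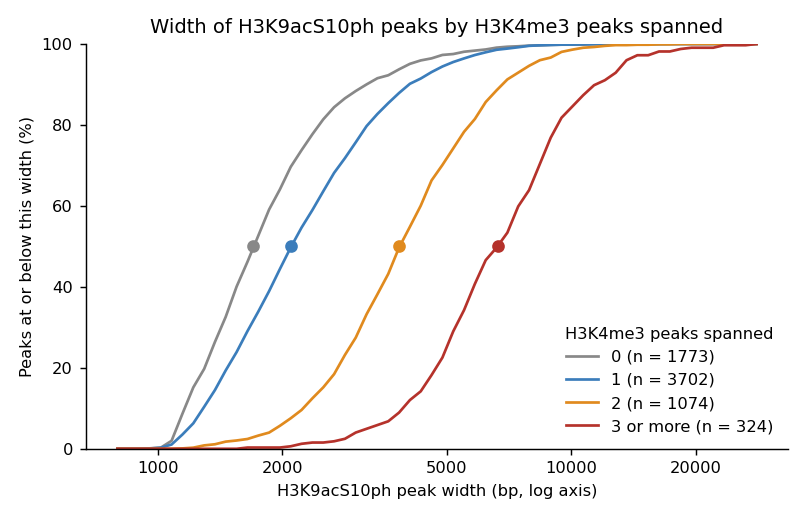
Share of H3K9acS10ph arm peaks (vertical axis, %) at or below each width (horizontal axis, bp, log scale), with 1 line for peaks spanning 0, 1, 2 and 3 or more H3K4me3 peaks and a dot at each median. The lines lie in the order of the count, with medians of 1704, 2102, 3839 and 6648 bp.

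The edges of H3K9acS10ph peaks lay a short way outside those of H3K4me3. Among 3616 pairs in which 1 H3K9acS10ph peak and 1 H3K4me3 peak overlapped only each other, the H3K9acS10ph peak was the wider in 3340 (92.4%), with medians of 2111 bp for H3K9acS10ph and 1395 bp for H3K4me3 and a median ratio of 1.32 (quartiles 1.15 and 1.75). It passed the H3K4me3 peak at both edges in 2938 pairs (81.2%, 79.9 to 82.5), at 1 edge in 635 and at neither in 43. Widths of the paired peaks had a Spearman rho of 0.617 and scores one of 0.696 over these 3616 pairs, given as descriptions because both lists come from the same cells and sites. Of the 6723 H3K4me3 peaks under a single H3K9acS10ph peak, 82.6% lay wholly inside it.

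Over all widths the median distance was of similar size at each count, and at like widths it was shorter where more H3K4me3 peaks were spanned. Measured from the outermost H3K4me3 edge, the median reach of an edge was 183 bp in peaks spanning 1 (quartiles 97 and 404, 7404 edges), 166 bp in peaks spanning 2 (44 and 347, 2148 edges) and 156 bp in peaks spanning 3 or more (-1 and 327, 648 edges), negative values lying inside H3K4me3. Within bands of peak width the medians parted. At a given width each further H3K4me3 peak leaves less room beyond the outermost edges, so this order is partly built into the measure. Among peaks of 2000 to under 3000 bp the median reach was 203 bp at 1 and 106 bp at 2, and among peaks of 1000 to under 2000 bp it was 154 bp at 1 and -138.5 bp at 2 (66 peaks). At 3000 to under 5000 bp it was 281, 180 and 95.5 bp at 1, 2 and 3 or more. At 5000 bp and over it was 779.5, 249 and 181 bp, and peaks spanning 1 had the widest spread there (quartiles 151 and 2630). The library protocol selected fragments of 200 to 300 bp, the same order of length as the reach over all widths, and the part of fragment size in it was not tested. Edges that passed H3K4me3 did so by medians of 204, 214 and 207 bp at 1, 2 and 3 or more. The share of edges that stopped short also differed by count: 816 of 7404 edges at 1, 459 of 2148 at 2 and 163 of 648 at 3 or more ended inside an H3K4me3 peak. Both edges passed H3K4me3 in 79.4% of peaks at 1 (78.0 to 80.6), 62.5% at 2 (59.5 to 65.3) and 57.7% at 3 or more (52.3 to 63.0).

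Reach did not favour either end of the arm. In peaks spanning 1, the left and right edges had medians of 181 and 185 bp. The shorter side of each peak had a median reach of 117 bp and the longer side 311 bp. The order of these 2 values is fixed by sorting the sides, and whether the sides differed beyond that was not tested. A minority of edges ran far: 11.0% of the edges at 1 (812 edges), 11.5% at 2 and 11.9% at 3 or more passed H3K4me3 by over 1000 bp. Reach also followed the score of the peak. With the H3K9acS10ph list cut into 4 equal parts by score, the median in peaks spanning 1 was 142 bp in the lowest part, then 182 and 191 bp, and 204 bp in the highest. In peaks spanning 2 it was 4.5, 72, 178 and 192 bp over the same parts. The lowest part held 49 such peaks, and their edges ran both ways (quartiles -911.5 and 137 bp). From the lowest part to the highest, median width also rose, from 1449 to 3144 bp at 1 and from 1962 to 4553 bp at 2. Whether reach went with score apart from width was not tested.

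**Figure D2:**
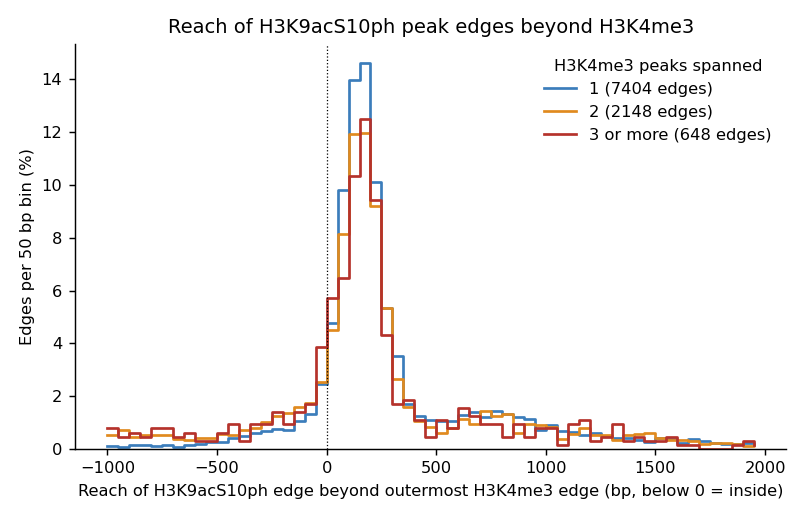
Share of H3K9acS10ph peak edges (vertical axis, % per 50 bp bin) by their reach beyond the outermost H3K4me3 edge (horizontal axis, bp, values below 0 lie inside H3K4me3), with 1 line for peaks spanning 1, 2 and 3 or more. All 3 lines peak between 0 and 300 bp, around medians of 183, 166 and 156 bp, and the lines for 2 and for 3 or more hold more edges below 0.

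The sequence that H3K9acS10ph added beyond H3K4me3 carried a different set of marks from the sequence it shared with H3K4me3. In peaks spanning 1, H3K4me1 covered 70.5% of the bases beyond H3K4me3 and 64.3% of the shared bases, while H3K27ac covered 53.6% of the bases beyond and 71.6% of the shared ones. JIL-1 covered 33.7% of the bases beyond and 61.5% of the shared bases, and H3K27acS28ph, the second phosphoacetylated mark, 9.23% and 28.2% in that order. The same order held in peaks spanning 2, with H3K4me1 over 83.1% of the bases beyond and 70.7% of the shared bases, and JIL-1 over 37.2% beyond and 67.8% shared. The gaps between the H3K4me3 peaks of these spans lay between the other zones for H3K27ac (72.6%, with 65.3% beyond and 79.7% shared) and for JIL-1 (43.8%). On the arms as a whole H3K4me1 covered 21.9%, H3K27ac 15.4%, JIL-1 13.8% and H3K27acS28ph 4.80% of the length, counted to the last peak of each arm, so all 4 were denser beyond H3K4me3 than along the arm. Edges at 1 that reached over 1000 bp beyond H3K4me3 were the richest in H3K4me1, which covered 79.2% of their bases, against 52.1% for reaches of 1 to 200 bp. The latter were 48.8% of the edges beyond and lay below the 64.3% of the shared bases. Reaches of over 200 to 500 bp, at 64.5%, were level with it. The higher H3K4me1 cover beyond H3K4me3 in peaks spanning 1 thus came from the longer reaches.

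Position by position across the H3K4me3 edges of the 1-to-1 pairs (7232 edges), H3K9acS10ph was called at 93.7% of edges 100 bp inside, 75.9% at 100 bp outside, 48.7% at 200 bp outside and 36.2% at 300 bp outside. JIL-1 dropped along the same stretch, with 46.1% at 100 bp inside and 25.9% at 300 bp outside, and was at its highest, 61.0%, 600 bp inside. H3K27ac stood at 59.6% at 100 bp inside and 37.7% at 300 bp outside. H3K4me1 changed least, with 59.7% at 100 bp inside, 52.5% at 300 bp outside and 46.7% at 1000 bp outside.

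**Figure D3:**
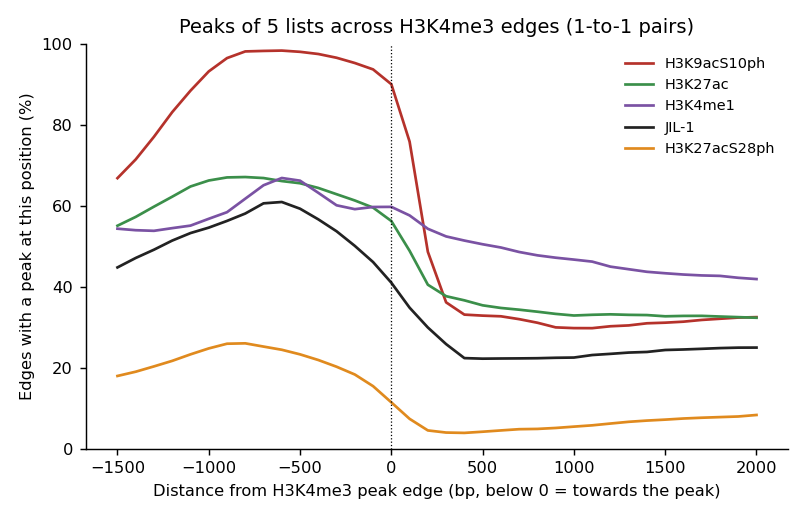
Share of 7232 H3K4me3 edges in 1-to-1 pairs (vertical axis, %) at which a peak of each of 5 lists was called, by distance from the edge (horizontal axis, bp, values below 0 lead into the H3K4me3 peak and, for narrow peaks, out at its far edge). The H3K9acS10ph line falls from 93.7% at 100 bp inside to 36.2% at 300 bp outside, and the H3K4me1 line only from 59.7% to 52.5%.

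H3K9acS10ph peaks that spanned more H3K4me3 peaks stood higher in the list by score and overlapped the other lists more often. The score is the authors' own value for each peak, used here as a rank from 0 for the lowest to 100 for the highest of the 6873. Median ranks were 24.1 for 0 (quartiles 10.8 and 38.9), 53.8 for 1 (30.3 and 74.5), 75.9 for 2 (57.4 and 89.5) and 85.2 for 3 or more (71.6 and 95.2). Scores piled up at 3100, and 0.226%, 7.59%, 21.6% and 29.6% of peaks at 0, 1, 2 and 3 or more stood at or above it. Rank and width rose together over all arm peaks (Spearman rho 0.720, 6873 peaks). Among peaks of 1000 to 3000 bp the median rank at 2 or more exceeded that at 1 by 6.15, in place of 24.5 over all widths. Within both width bands of that range it did not. Median ranks at 2 or more and at 1 were 29.0 and 33.8 at 1000 to under 2000 bp, and 58.3 and 60.1 at 2000 to under 3000 bp. In the wider bands the rank at 2 or more was the higher, with 78.1 and 76.7 at 3000 to under 5000 bp, and 87.8 and 84.8 at 5000 bp and over.

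H3K27ac overlapped 69.9% of all H3K9acS10ph arm peaks, and by count 47.8% at 0 (847 peaks, 45.5 to 50.1), 73.1% at 1 (71.6 to 74.5), 87.6% at 2 (85.5 to 89.5) and 96.3% at 3 or more (93.6 to 97.9). H3K4me1 overlapped 80.2% of all, and 70.7% at 0 (1254 peaks, 68.6 to 72.8), 79.9% at 1 (78.6 to 81.2), 91.7% at 2 (89.9 to 93.2) and 97.5% at 3 or more (95.2 to 98.7). JIL-1 overlapped 73.5% of all, and 49.0% at 0 (869 peaks, 46.7 to 51.3), 77.6% at 1 (76.2 to 78.9), 92.6% at 2 (90.9 to 94.1) and 98.1% at 3 or more (96.0 to 99.1). All 3 lists together were present at 29.6% of peaks at 0, 62.4% at 1, 83.7% at 2 and 95.4% at 3 or more. H3K27acS28ph, which overlapped 32.9% of all, had the steepest order, with 8.23% at 0, 34.0% at 1, 57.2% at 2 and 76.2% at 3 or more.

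Between peaks spanning 2 or more and peaks spanning 1, most of these differences went with width. Over all widths the shares at 2 or more exceeded those at 1 by 16.6 points for H3K27ac (Newcombe interval 14.3 to 18.6), 13.1 points for H3K4me1 (11.2 to 14.9) and 16.3 points for JIL-1 (14.4 to 18.1). Averaged over bands of peak width, the differences were 2.75 points (0.487 to 5.26), 1.15 points (-0.637 to 3.18) and 4.23 points (2.29 to 6.46). In the narrowest band, 1000 to under 2000 bp, H3K27ac was found at 52.2% of 67 peaks spanning 2 or more and at 60.4% of 1673 spanning 1, a difference of -8.19 points (-20.2 to 3.56). In the band of 2000 to under 3000 bp H3K27ac was found at 79.1% of 234 peaks spanning 2 or more and at 79.0% of 1117 spanning 1, and H3K4me1 at 84.2% and 86.0%. H3K27ac and JIL-1 kept differences at 3000 to under 5000 bp, of 4.87 points (1.64 to 8.02) and 3.81 points (1.14 to 6.41). JIL-1 also did in the widest band, with 98.9% of 543 peaks at 2 or more and 93.2% of 191 at 1 among peaks of 5000 bp and over, a difference of 5.70 points (2.63 to 10.2). Shortening the lists moved the differences over all widths both ways. At equal length each list held 5222 peaks, which is the full H3K27ac arm list, so H3K27ac itself was not cut. The differences were then 6.95 points for H3K27ac, 18.2 points for H3K4me1 and 17.5 points for JIL-1. With the upper 50% of every list they were 23.8, 15.6 and 10.8 points in the same order. H3K27acS28ph was also more frequent at 2 or more among peaks of 5000 bp and over, with 77.2% at 2 or more and 64.9% at 1.

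Between peaks spanning 1 and peaks spanning 0 the lists parted. JIL-1 was found at 28.6 points more of the peaks at 1 (25.9 to 31.3), and at 24.0 points more when averaged over width bands (21.3 to 26.8). H3K27ac was found at 25.3 points more over all widths and 18.4 points more over width bands. From the narrowest of the 4 bands to the widest the H3K27ac difference was 21.8, 22.3, 9.26 and 0.842 points, the last with an interval of -6.21 to 12.9. Over the same bands the JIL-1 difference was 22.9, 31.7, 18.6 and 8.41 points. It too was smallest in the widest band, where its interval held 0 (-0.455 to 21.7). When only the upper 50% of every list by score was used, the differences were smaller, 8.26 points for H3K27ac (3.93 to 12.7) and 17.0 points for JIL-1 (12.8 to 21.3). Peaks at 0 then included peaks over H3K4me3 peaks that the cut had removed. In the H3K27ac list 3037 of 5222 arm peaks stood at or above 3100, which was also its median score. Its cut therefore fell among tied scores and kept the wider of the tied peaks. Over all peaks H3K4me1 differed least of these 3, by 9.20 points (6.75 to 11.7), and by 4.39 points over width bands.

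**Figure D4:**
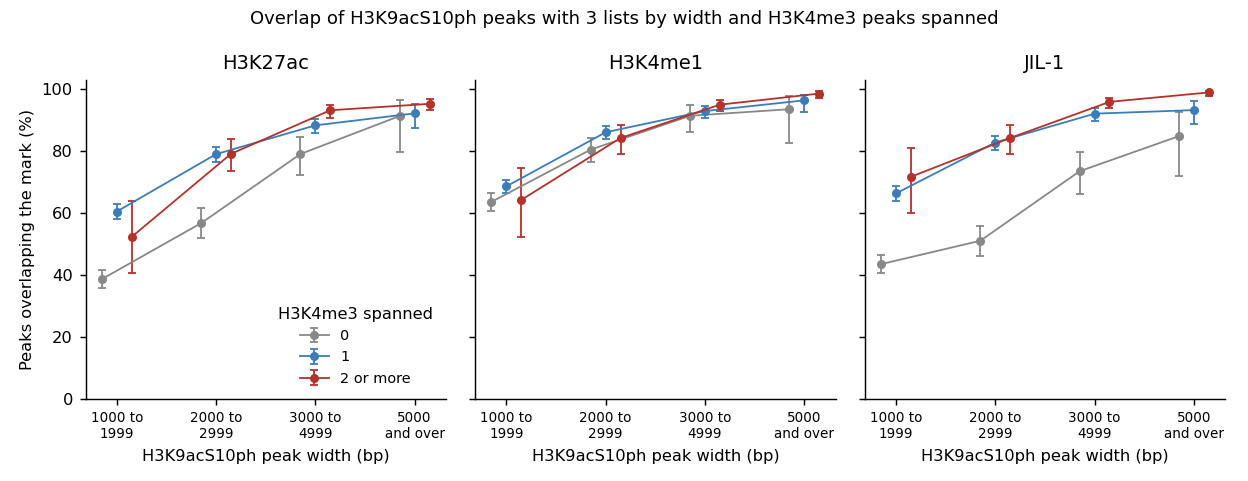
Share of H3K9acS10ph arm peaks that overlapped H3K27ac, H3K4me1 or JIL-1 (vertical axis, %) in 4 bands of peak width (horizontal axis, bp), for peaks spanning 0, 1 and 2 or more H3K4me3 peaks, with 95% Wilson intervals as bars. For H3K4me1 the intervals of peaks at 1 and at 2 or more overlap in every band. Peaks at 0 lie lowest in every band for each of the 3 lists, for JIL-1 at 43.4%, 51.0%, 73.5% and 84.8% from the narrowest band to the widest. In the widest band the intervals at 0 and at 1 overlap for each list.

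Score separated these 3 lists further, in a comparison chosen after the data were seen. It did not hold width. In the third part by score, median widths were 3664 bp at 2 or more and 2336 bp at 1. Averaged over the 4 equal parts of the H3K9acS10ph list by score, peaks at 2 or more differed from peaks at 1 by -0.665 points for H3K27ac (-2.25 to 0.809), 0.477 points for H3K4me1 (-0.979 to 1.79) and 4.68 points for JIL-1 (3.09 to 6.13). In the same averages, peaks at 1 exceeded peaks at 0 by 11.1 points for JIL-1 (8.41 to 15.3) and by 1.06 points for H3K27ac (-0.879 to 4.48), and fell below them by 5.77 points for H3K4me1 (difference -5.77, -7.33 to -2.58). In the lowest part, JIL-1 was found at 50.7% of 751 peaks at 1 and 40.5% of 918 at 0, H3K27ac at 30.1% and 31.6%, and H3K4me1 at 44.7% and 57.2%. In the second part JIL-1 was found at 68.5% of 932 peaks at 1 and 51.1% of 628 at 0, and in the third at 87.9% of 1111 and 74.9% of 195. In the highest part the JIL-1 shares were close, 96.6% of 908 peaks at 1 and 93.8% of only 32 at 0 (79.9 to 98.3). H3K27acS28ph went the way of JIL-1, with 14.3% at 1 and 6.85% at 0 in the second part and 33.7% at 1 and 17.4% at 0 in the third. The H3K4me1 difference also changed sign in the upper 50% of each list (-18.3 points) and was -0.0190 points with lists of equal length. In those settings H3K4me3 was cut as well, and peaks at 0 included peaks over H3K4me3 peaks that the cut removed.

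Although H3K4me1 overlapped peaks at 1 more often, it covered them less fully than peaks at 0. The median share of the peak width under H3K4me1 was 73.1% at 1 and 99.4% at 0, and H3K4me1 covered the whole peak in 13.3% of peaks at 1 (12.2 to 14.4) and in 49.2% at 0 (46.9 to 51.5). The difference was present in each width band with enough peaks. At 1000 to under 2000 bp the shares wholly covered were 13.4% at 1 and 43.9% at 0, and at 3000 to under 5000 bp they were 13.0% and 67.3%. H3K27ac wholly covered 859 of 3702 peaks at 1 and 354 of 1773 at 0, and its difference changed sign with width, at 6.12, 3.48, -5.34 and -7.32 points (-22.5 to 5.31) from the narrowest band to the widest.

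The 1773 H3K9acS10ph peaks without H3K4me3 were not simply its near neighbours. Their median distance to the nearest H3K4me3 peak was 3524 bp (quartiles 1204 and 9318). Only 232 (13.1%) lay within 500 bp, and 415 (23.4%) lay 10000 bp or more away. In 69.5% of cases the nearest H3K4me3 peak itself carried another H3K9acS10ph peak, close to the 72.6% of all H3K4me3 arm peaks that did. H3K27ac was found at 57.8% of those within 500 bp (51.3 to 63.9), 57.0% at 500 to under 2000 bp, 46.1% at 2000 to under 5000 bp, 43.6% at 5000 to under 10000 bp and 38.1% at 10000 bp or more (33.5 to 42.8). JIL-1 did not follow distance in the same way, with 54.7% (48.3 to 61.0), 52.3%, 44.0%, 44.6% and 51.1% (46.3 to 55.9) over the same steps.

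By the marks of enhancers these peaks fell into 3 main sets. H3K4me1 and H3K27ac were both present at 832 (46.9%), with a median rank of 34.8 and JIL-1 at 63.1%. H3K4me1 without H3K27ac was present at 422 (23.8%), with a median rank of 20.5 and JIL-1 at 42.9%. Neither was present at 504 (28.4%), which ranked lowest, at a median of 13.9, and had JIL-1 at 30.2%. The remaining 15 had H3K27ac without H3K4me1.

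Of the 9412 H3K4me3 arm peaks, 72.6% touched H3K9acS10ph, and those that did were wider and ranked higher by score. H3K4me3 peaks alone under an H3K9acS10ph peak had a median width of 1395 bp and a median rank in their own list of 61.3 (3616 peaks), those sharing it with 1 other 1350 bp and 62.9 (2057 peaks), and those sharing it with 2 or more others 1403 bp and 62.3 (1050 peaks). The 2583 without H3K9acS10ph had a median width of 950 bp and a median rank of 23.6. The H3K4me3 peaks of the multiple spans were thus close in width and rank to those that stood alone. H3K27ac, present at 62.5% of all H3K4me3 arm peaks, was found at 87.8% of H3K4me3 peaks shared by 3 or more, 81.7% of those shared by 2, 71.5% of those alone and 23.9% of those without H3K9acS10ph. H3K4me1, present at 69.0% of all, was found at 92.3%, 87.1%, 78.5% and 31.3% in the same order. JIL-1, present at 67.9% of all, was found at 84.6%, 81.3%, 75.1% and 39.5%, and H3K27acS28ph, present at 29.0% of all, at 47.1%, 42.9%, 32.7% and 4.84%.

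Whether neighbouring H3K4me3 peaks came under the same H3K9acS10ph peak went with the distance between them. Of the 9406 gaps between neighbours on the arms, 1835 were bridged by 1 H3K9acS10ph peak (median gap 160 bp), and in 3475 both neighbours lay under separate H3K9acS10ph peaks (median gap 3309 bp). The bridged share was 78.9% of 1480 gaps under 250 bp (76.8 to 80.9), 37.8% of 741 at 250 to under 500 bp, 21.6% of 897 at 500 to under 1000 bp, 10.7% of 1201 at 1000 to under 2000 bp and 3.86% of 1372 at 2000 to under 4000 bp (2.97 to 5.02). The longest bridged gap was 7484 bp.

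At like distances, the bridged gaps were more often filled by the other marks as well. Over all gaps, H3K27ac wholly covered 24.0%, H3K4me1 24.5%, JIL-1 11.9% and H3K27acS28ph 3.71%. At 500 to under 1000 bp, H3K4me1 covered 74.2% of the 194 bridged gaps and 46.6% of the 367 between separate peaks, a difference of 27.6 points (19.3 to 35.2). H3K27ac covered 59.8% and 44.7% of them (difference 15.1, 6.42 to 23.4) and JIL-1 19.6% and 8.45% (difference 11.1, 5.18 to 17.8). Under 250 bp the order of the marks was another one. There H3K27ac covered 76.9% of 1168 bridged gaps and 51.5% of 68 between separate peaks (difference 25.4, 13.7 to 37.3), and JIL-1 59.3% and 36.8% (difference 22.6, 10.3 to 33.4), while H3K4me1 covered 55.9% and 51.5% (difference 4.44, -7.39 to 16.4). H3K27acS28ph covered 12.9% of the 280 bridged gaps and 1.90% of the 211 others at 250 to under 500 bp.

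**Figure D5:**
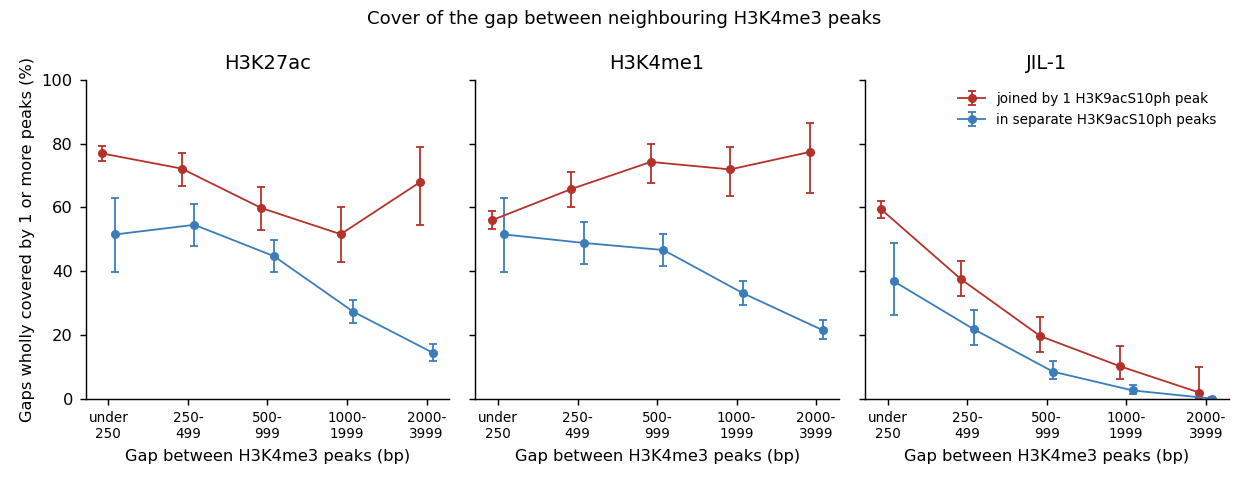
Share of gaps between neighbouring H3K4me3 arm peaks wholly covered by H3K27ac, H3K4me1 or JIL-1 (vertical axis, %) by the length of the gap (horizontal axis, bp), for gaps joined by 1 H3K9acS10ph peak and gaps between separate H3K9acS10ph peaks, with 95% Wilson intervals as bars. H3K4me1 cover of joined gaps runs from 55.9% at under 250 bp to 77.4% at 2000 to under 4000 bp, and of gaps between separate peaks from 51.5% to 21.5%.

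In 106 cases the relation was turned round and 1 H3K4me3 peak touched 2 H3K9acS10ph peaks. These H3K4me3 peaks were wide (median 2164 bp), and the H3K9acS10ph peaks on them were 166 bp apart at the median (quartiles 51.8 and 297.5). The widest was at 3L:5755241-5767349 (12.1 kb), and the next at 2R:4998100-5005606, at X:19542532-19548924, at 3L:9715192-9721553 and at 3R:2975644-2981784. All 5 overlapped H3K27ac, H3K4me1, JIL-1 and H3K27acS28ph.

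Among the large arms 3L had the lowest share of multiple spans. Peaks spanning 2 or more made up 21.4% of 1002 H3K9acS10ph peaks on 2L, 21.8% of 1447 on 2R (19.8 to 24.0), 16.9% of 1458 on 3L (15.1 to 19.0), 21.5% of 1633 on 3R (19.6 to 23.6) and 20.6% of 1303 on X (18.5 to 22.8), against 20.4% on the autosomal arms 2L, 2R, 3L and 3R together. The median reach of peaks spanning 1 ran from 175 bp on 2L to 193 bp on 2R among these arms. The interval for 3L lay below those for 2R and 3R. Chromosome 4 had only 30 peaks, of which 3 spanned 0, 25 spanned 1 and 2 spanned 2. Its share spanning 1 was 83.3% (66.4 to 92.7), against 53.7% on the autosomal arms 2L to 3R together.

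Single regions show the range of forms. Positions are 1-based with both ends included, on scaffolds named as in release 5 of the genome. Of the 6 H3K9acS10ph peaks spanning 6 or 7 H3K4me3 peaks, all but the narrowest of those spanning 6 are given. They were at 3R:23767241-23784693 (7 spanned), at X:21214595-21230422 (7), at 3R:5410688-5424892 (6), at 2R:4025712-4038954 (6) and at 3R:24971458-24984694 (6). These 5 were 13.2 to 17.5 kb wide, H3K4me3 covered 64.6% to 73.3% of them, and each overlapped the other 4 lists.

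The 5 widest peaks spanning exactly 1 were of more than one kind. The widest, at 3L:3405672-3421965 (16.3 kb), followed a broad H3K4me3 peak that covered 76.4% of it. The second, at 3L:8688984-8701802 (12.8 kb), had H3K4me3 over 7.83% of its width and passed it by 4988 bp on one side and 6827 bp on the other, wholly under both H3K27ac and H3K4me1. The others were at 3R:22052412-22064052, at 2L:1111023-1121680 and at 2R:9352333-9362757, the last of which had no JIL-1 peak.

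The longest reach of a single edge was 8962 bp, in a peak at 3R:25101337-25118966 that spanned 2 and passed them by 6080 bp on its other side. H3K4me1 covered 99.8% of this peak and H3K27ac 91.7%. The next longest were 8052 bp at 3R:19833473-19847725, 7956 bp at 3R:3938183-3947465, 7087 bp at X:12640527-12648669 and 6864 bp at 3L:22392830-22401452. In all 5, H3K4me1 covered 97.3% to 100% of the width and JIL-1 between 32.1% and 87.6%.

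The highest-scoring peaks without H3K4me3 were at X:2552249-2558435, at 3R:17411779-17418628, at 3R:19033704-19039983, at 3L:8650616-8656694 and at X:19181422-19186747. They were 5.33 to 6.85 kb wide, and each overlapped H3K27ac, H3K4me1 and JIL-1. The widest without H3K4me3 were at 2L:18621990-18633239 (11.3 kb), at 3L:8672218-8683301, at 2R:2027303-2038001, at 3L:21379087-21388353 and at X:18182415-18191253. Width and score did not go together in these, since the widest had a score of 57.6, near the lowest score of the list, 50, and the second a score of 2261. The fourth had no JIL-1 peak and the fifth no H3K27ac peak.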

How the data were processed

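Bowtie 0.12.5 aligned the reads, per the submitters' processing notes. The authors deposited 1 peak list per antibody, with start, end and score. Peak names carry the name MACS. Which version, settings, input control or genome build was used is not given in the sources used here. No header of the deposited files says what the score is, so it was used only to rank or cut a list. Where scores were tied at a cut, wider peaks were kept first. Starts and ends are other values, positions in bp, read as 0-based starts. Read depth is unknown.

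Peaks on Het scaffolds, U and Uextra were left out. Overlap meant at least 1 bp. Width bands began at 1000, 2000, 3000 and 5000 bp, and bands with under 20 peaks of either class were not compared. Shares have Wilson intervals, differences Newcombe intervals and medians order-statistic intervals, all at 95% and for counting error only, and neighbouring peaks are not independent. Averages over bands weight each band by the class with the higher count. With 1 library per antibody there was no test. Members, lists and comparisons were chosen with earlier results of these data known. Gap lengths, distances and the 4 equal parts by score were chosen after the data were seen. The regions named are the first 5 by each of 6 rules (most spanned, widest spanning 1, highest score and widest spanning 0, longest reach, widest H3K4me3 over 2). The gene table describes release 6, so genes and sequences are not analysed here. Alternatives changed the meaning of spanned, joined H3K4me3 peaks, used the upper 50% of lists, lists of 5222 peaks, 4 arms, 1000 bp around midpoints or peaks of 1000 to 3000 bp. Work was done with pandas 2.3.3, scipy 1.17.1 and numpy 2.4.6 under Python 3.11.15, and the counting was tested on simulated data.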

Additional observations from a re-analysis of the deposited data

Results flagged for a closer look

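Peaks outside the arms took no part in the comparisons. There were 45 H3K9acS10ph peaks and 79 H3K4me3 peaks on the Het scaffolds, U and Uextra, outside the main measurement. Of the 45, 10 spanned no H3K4me3 peak, 32 spanned 1, 2 spanned 2 and 1 spanned 3 or more.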

How the results depend on the processing

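No paired analysis was possible because each antibody had 1 library and no result comes from a test. Leaving out X and chromosome 4 moved none of the 14 results out of its interval or by over 1.5 times. In what follows, differences in shares are in percentage points, and width and rank are the median at 2 or more minus that at 1 (2237 bp and 24.5 as reported). With at least 50% of H3K4me3 inside, the width difference was 2431 bp. With the whole H3K4me3 peak inside, 215 peaks spanned 3 or more, both edges passed in 99.9% of pairs (which that setting nearly fixes), reach was 211 bp, the width difference 2680 bp, and differences at 1 minus 0 were 21.9 for H3K27ac and 21.7 for JIL-1. With H3K4me3 peaks joined, 333 peaks spanned 2 and 25 spanned 3 or more, both edges passed in 76.5%, reach was 173 bp, width 3529 bp and rank 19.1. Differences at 2 or more minus 1 were then 12.1 for H3K27ac, 9.30 for H3K4me1 and 14.2 for JIL-1, and at 1 minus 0 they were 29.0, 12.1 and 32.1.

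In the upper 50% of each list, counts were 582, 2166, 578 and 110, both edges passed in 83.5%, reach was 201 bp, width 2012 bp and rank 22.0. Differences at 2 or more minus 1 were 23.8 for H3K27ac, 15.6 for H3K4me1 and 10.8 for JIL-1, and at 1 minus 0 they were 8.26, -18.3 and 17.0. Those for H3K27ac rest on a cut among scores tied at 3100, where the wider peaks were kept. With lists of equal length, 663 peaks spanned 2 and 133 spanned 3 or more, both edges passed in 82.6%, rank was 22.1, differences at 2 or more minus 1 were 6.95 for H3K27ac and 18.2 for H3K4me1, and at 1 minus 0 they were 33.7 for H3K27ac, -0.0190 for H3K4me1 and 32.9 for JIL-1. Shorter lists hold fewer peaks by construction; the cause of the sign changes of H3K4me1 was not tested. With marks required around the midpoint, differences at 2 or more minus 1 were 8.75 for H3K4me1 and 9.64 for JIL-1. Among peaks of 1000 to 3000 bp, rank was 6.15 and differences at 2 or more minus 1 were 5.32 for H3K27ac, 4.24 for H3K4me1 and 8.58 for JIL-1. In both width bands of that range the median rank was lower at 2 or more than at 1.

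Averaged over width bands, an alternative chosen after seeing the data, differences at 2 or more minus 1 were 2.75 for H3K27ac, 1.15 for H3K4me1 and 4.23 for JIL-1, and at 1 minus 0 they were 18.4, 4.39 and 24.0. Averaged over 4 equal parts of the list by score, also chosen afterwards, they were -0.665, 0.477 and 4.68 at 2 or more minus 1, and 1.06, -5.77 and 11.1 at 1 minus 0. JIL-1 alone of these 3 lists kept an interval above 0 in both averages and both contrasts. Neither average held width and score together. Within each score part, peaks at 2 or more were wider than peaks at 1 (3664 and 2336 bp in the third). Within each width band averaged, peaks at 1 ranked above peaks at 0 (60.1 and 37.0 at 2000 to under 3000 bp). Whether the JIL-1 differences remain with width and score held together was not tested. The lists give no depth, so its part in the counts cannot be told apart.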
